A study of Homo sapiens with 9 samples.

Results

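The 9 S100 calcium-binding protein genes described here are S100A4, S100A6, S100A8, S100A9, S100A10, S100A11, S100A12, S100A13 and S100P. They were taken by gene symbol from 59648 gene rows counted in each of 9 RNA-seq libraries of Kasumi-1 cells, and all 9 symbols were found. Kasumi-1 is an established human line of acute myeloblastic leukaemia that carries t(8;21), the translocation that fuses RUNX1 (AML1) to RUNX1T1 (ETO). The fusion, named AE in the labels, was knocked down in 3 libraries (AE knockdown, replicates 1, 2 and 3), and LYL1, a helix-loop-helix transcription factor, was knocked down in 3 libraries (LYL1 knockdown, shRNAs 538, 540 and 542). A control shRNA was expressed in the remaining 3 libraries (control, replicates 1, 2 and 3). All cells received a lentiviral shRNA, were put under puromycin at 1 µg/mL 48 h later for a further 48 h and were sampled on day 4. Control cells were therefore also transduced and selected, and every library came from this single cell line. The LYL1 knockdown libraries carry different shRNAs. For the AE knockdown and control libraries the labels do not tell separate cultures from repeat libraries, so p-values measure the spread between these libraries, which may be technical there. The names AE 1, 2 and 3 do not say whether one hairpin or several were used.

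S100 proteins are small EF-hand proteins that bind calcium and mostly act as dimers, and many of them lie in one cluster on chromosome 1. S100A8 and S100A9 pair to form calprotectin, which is stored in the cytosol of neutrophils and monocytes and is a classical product of late myeloid maturation. S100A12 is a further granulocyte alarmin. When released, these proteins bind receptors such as TLR4 and RAGE, whereas S100A4, S100A6, S100A10 and S100A11 are mainly known for binding annexins, cytoskeletal proteins and one another inside the cell.

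Promoter windows are shown for the 3 members the results turn on most, the calprotectin pair and the member whose call held in every setting tried. Each window holds 250 bases before and 50 bases after a start annotated by RefSeq on GRCh38.p14, and 9 of 9 members had at least 1 window. The capitals mark the RUNX core letters TGTGGT, or ACCACA on the opposite strand, and the TATA box letters TATAAA. The S100A8 window, 1 of 3 listed for the gene, spans chr1:153391024-153391323 on the minus strand. The S100A9 window spans chr1:153357604-153357903 on the plus strand, and the S100A4 window chr1:153545757-153546056 on the minus strand.
S100A8: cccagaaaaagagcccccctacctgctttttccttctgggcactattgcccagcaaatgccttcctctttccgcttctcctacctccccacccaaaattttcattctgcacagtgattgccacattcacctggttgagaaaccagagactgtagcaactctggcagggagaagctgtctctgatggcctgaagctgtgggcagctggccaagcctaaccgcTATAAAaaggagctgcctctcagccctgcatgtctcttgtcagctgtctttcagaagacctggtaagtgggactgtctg
S100A9: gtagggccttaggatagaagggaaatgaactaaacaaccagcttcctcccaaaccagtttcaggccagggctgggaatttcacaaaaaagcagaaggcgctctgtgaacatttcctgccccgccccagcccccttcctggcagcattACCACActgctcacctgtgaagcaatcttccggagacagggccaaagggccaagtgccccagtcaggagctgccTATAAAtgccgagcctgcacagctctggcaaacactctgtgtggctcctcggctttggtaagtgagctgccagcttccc
S100A4: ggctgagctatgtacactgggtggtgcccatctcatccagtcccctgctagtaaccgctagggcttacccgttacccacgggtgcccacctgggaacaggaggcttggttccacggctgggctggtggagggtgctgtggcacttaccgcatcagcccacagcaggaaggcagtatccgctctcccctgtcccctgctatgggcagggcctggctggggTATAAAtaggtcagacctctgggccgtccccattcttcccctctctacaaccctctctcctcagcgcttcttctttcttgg
All 3 windows held TATAAA, first letter 29 bases upstream of the start in S100A8, 29 bases in S100A9 and 31 bases in S100A4. The RUNX core was found in the S100A9 window, 103 bases upstream of the start, and in the S100A11 window, 117 bases upstream, but in no window of the other members. Of 35116 promoter windows of this length, 13.1% held TGTGGT and 11.5% held TATAAA on either strand. The C/EBP-type letters TTNNGNAA, present in 36.8% of windows, occurred in a window of every member except S100A4 and S100A10. They were thus not particular to S100A8 and S100A9. An E-box variant, CAGATG, present in 14.7% of windows, occurred among the members in the S100A6 window. In the windows printed, no match overlapped a match to another motif. These matches describe letters, not binding.

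Each library held between 20103275 (LYL1 shRNA 542) and 28039518 (AE replicate 1) counts. RUNX1T1, whose count includes reads of the fusion, was at 52.6%, 63% and 40.5% of the control mean in AE replicates 1, 2 and 3 (log2 fold change -0.94, SE 0.18, adjusted p = 0.00778, edgeR), and RUNX1, whose count includes fusion and normal reads, was also lower (-0.76, SE 0.17, adjusted p = 0.0119, edgeR). LYL1 was at 49.5%, 60.5% and 27% of the control mean under shRNAs 538, 540 and 542, and the edgeR quasi-likelihood test did not call that difference (log2 fold change -1.13, SE 0.26, adjusted p = 0.526). AE replicate 3 stood apart from the other libraries: on the leading principal axis (56.5% of the variance) it lay at -102, against -46.1 and -29.7 for AE replicates 1 and 2 and 23.2 to 37.6 for the other 6 libraries. It also had the highest share of mitochondrial ribosomal RNA, 1.21% of counts, against 0.483% to 0.791% in the other libraries. Of the Kasumi-1 markers, MPO was at 11418 to 32465 CPM (reads of a gene scaled by the library's total) and KIT at 434 to 1368 CPM over all libraries, and CD34 was low at 1.14 to 53.2 CPM. The 8 monocyte markers summed to 11.2 to 132 CPM in AE knockdown, 12.6 to 20.4 CPM in LYL1 knockdown and 13.9 to 15.6 CPM in control libraries. In AE replicate 3, the library with 132 CPM, LYZ made up 129 CPM. LYZ was at 23.5 and 9.72 CPM in AE replicates 1 and 2, against 5.86, 5.08 and 7.17 CPM in controls. LYZ was called higher in AE knockdown (log2 fold change 3.16, SE 0.81, adjusted p = 0.0223, edgeR). MS4A7, the other tested marker of the list, was at 7.47, 1.23 and 1.73 CPM in AE knockdown libraries, against 9.38, 8.62 and 8.31 CPM in controls (adjusted p = 0.092, edgeR). CLEC7A was at 0.143 to 0.433 CPM in AE knockdown libraries and 0 in controls, while the defining monocyte genes CD14, FCN1, VCAN and CD163 were at or near 0 in all 9 libraries. Erythroid and fibroblast markers were at or near 0 throughout. The part of these differences in the results below was not tested. Calls of members against control are given with and without AE replicate 3. Most genes outside the family are given with all libraries only.

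S100A11 was the highest member in every group. Divided by exonic length, which makes levels of different genes comparable, the mean levels in AE knockdown libraries were 434 CPM per kilobase for S100A11, 223 for S100A4, 160 for S100A9, 46.3 for S100A8, 8.97 for S100P, 4.95 for S100A13, 4.83 for S100A6 and 0.0189 for S100A10. In LYL1 knockdown libraries they were 443 for S100A11, 69.8 for S100A4, 40.5 for S100A9, 6.26 for S100P, 3.06 for S100A13, 0.709 for S100A6, 0.2 for S100A8 and 0.148 for S100A10, in the same unit. In control libraries the order was S100A11 at 381 CPM per kilobase, S100A4 at 87.9, S100A9 at 16.6, S100P at 6, S100A13 at 2.31, S100A6 at 0.799, S100A10 at 0.0905 and S100A8 at 0.0195. S100A12 had no count in any of the 9 libraries, which allows at most 0.106 to 0.15 CPM depending on the library. The order was clean in controls, where only S100A10, S100A8 and S100A12 overlapped their neighbours. In AE knockdown libraries the ranges of S100A4 and S100A9, S100A9 and S100A8, S100A8 and S100P, and S100A13 and S100A6 overlapped. S100A9 was nevertheless above S100A8 in each of the 3 libraries, while the other pairs kept no one order over them. In LYL1 knockdown libraries S100P and S100A13, S100A6 and S100A8, and S100A8 and S100A10 overlapped.

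The 9 members together took 0.0498%, 0.0534% and 0.0678% of all counts in AE replicates 1, 2 and 3, and 0.0423%, 0.0266% and 0.0395% under LYL1 shRNAs 538, 540 and 542. In controls the share was 0.032%, 0.0321% and 0.032%. S100A11 made up 42.3%, 44.9% and 44.8% of the members' counts in AE knockdown libraries, 78.7%, 65.4% and 74.5% in LYL1 knockdown libraries and 71.2%, 71.7% and 69.8% in controls. The AE knockdown libraries thus held more S100 transcript than the controls and a smaller share of it was S100A11.

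**Figure D1:**
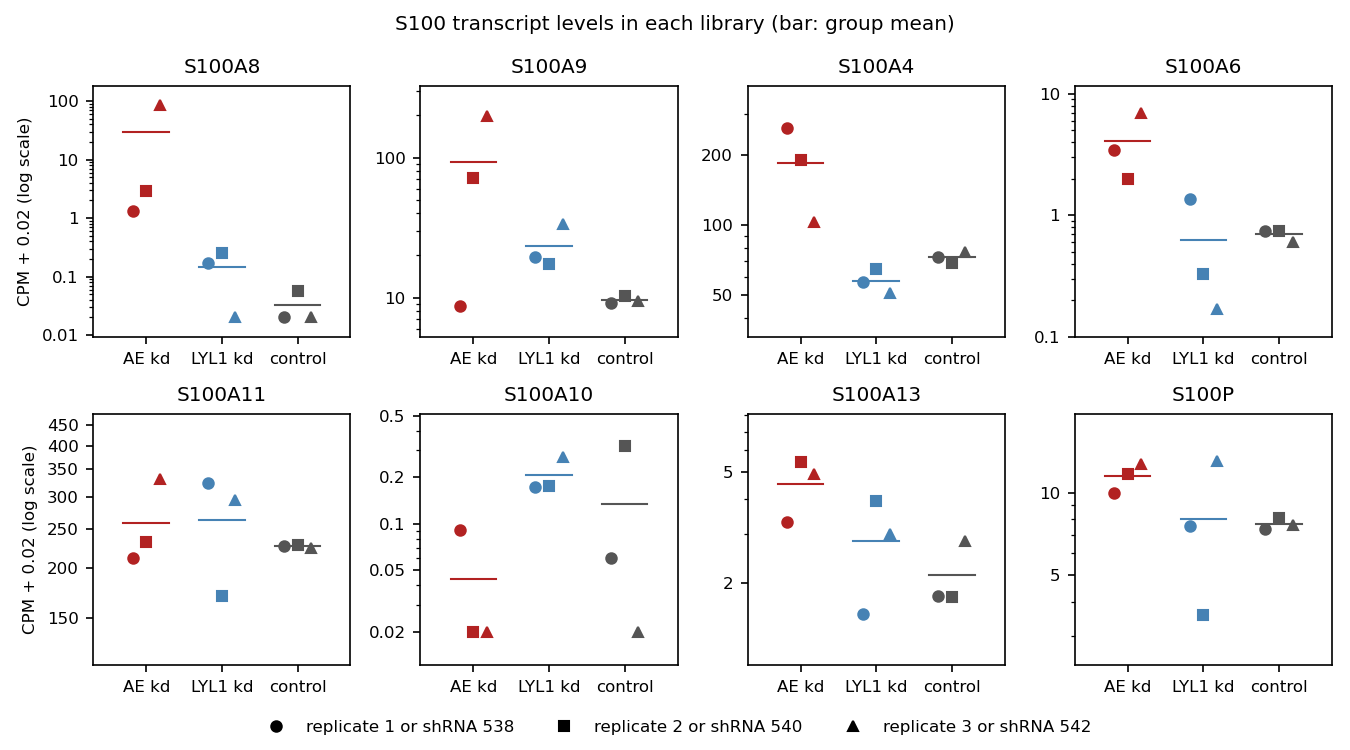
Level of 8 members in each library, in CPM after trimmed-mean scaling plus 0.02, on a log axis of its own for each gene. Points are libraries, bars are group means, and S100A12 is left out because it had no count; S100A8 reaches 85 CPM in AE replicate 3 but 1.29 and 2.92 CPM in the other AE knockdown libraries, and S100A4 separates AE knockdown from control in every library.

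The comparison of AE knockdown with control libraries asks which S100 genes depend on the fusion. With edgeR's quasi-likelihood test over 14741 genes and a Benjamini-Hochberg adjusted p under 0.05, 5 members were called higher, S100A4, S100A6, S100A8, S100A9 and S100A13, and 0 were called lower. Over all genes tested, 11.4% were called higher and 10.4% lower, and 23.1% had every AE knockdown library above every control. An unadjusted p under 0.05, reached by 37.2% of tested genes in either direction, was found for no member that was lower, and DESeq2 and both limma-voom fits also called 0 lower. Only 7 members passed the low-count filter, and S100A8 passed through the AE knockdown libraries alone, so it had to be higher there and the 5 calls cannot be read as a share of the family. S100A10 and S100A12 did not pass the filter. In bulk RNA, a change in the share of cells that express a gene and a change in RNA per cell cannot be told apart.

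S100A8, the smaller calprotectin subunit, was nearly silent without the knockdown of AE. It had 36, 83 and 1769 counts in AE replicates 1, 2 and 3, against 0, 1 and 0 counts in controls, or 1.29, 2.92 and 85 CPM against 0, 0.0377 and 0 CPM. The groups did not overlap, and AE replicate 3 alone held most of the AE knockdown counts. Set against the single count in the summed controls, the ratio was 96.6 in AE replicate 1 (95% counting interval 16.3 to 3921), 219 in replicate 2 (38.3 to 8772) and 6387 in replicate 3 (1145 to 252411). These intervals cover counting error only. The test called S100A8 (adjusted p = 0.0109, edgeR), a direction that the filter had fixed, since no library outside AE knockdown reached the filter's 0.394 CPM. The adjusted p was 0.000986 without AE replicate 3, and the call was lost without control replicate 2, the only control with a count (adjusted p = 0.0743), and without the low-count filter (adjusted p = 0.0666).

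S100A9, the other calprotectin subunit, was present in all libraries. It reached 8.68, 71.3 and 198 CPM in AE replicates 1, 2 and 3, against 9.14, 10.2 and 9.36 CPM in controls. AE replicate 1 lay below all 3 controls, at 90.9% of their mean, and the groups overlapped. The fitted log2 fold change was 3.27 (SE 0.81, adjusted p = 0.0204, edgeR), with 2 of 3 AE knockdown libraries above every control. The call was lost without AE replicate 3 (2.05, adjusted p = 0.0717), without any one of the controls (adjusted p from 0.0763 to 0.0809) and without the low-count filter (adjusted p = 0.125). It was also lost with a replicate block (2.46, adjusted p = 0.0967, edgeR), and with limma-voom, whose sample weights gave 1.25 (adjusted p = 0.217) and whose spread per group gave 2.33 (adjusted p = 0.0563).

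The balance of the calprotectin subunits differed between the AE knockdown libraries. Per length, there were 13.3 S100A8 reads for every 100 of S100A9 in AE replicate 1 (95% counting interval 9.1 to 18.9), 3.68 in replicate 2 (2.92 to 4.58) and 38.6 in replicate 3 (36.5 to 40.9). The intervals of the 3 libraries do not overlap, but they cover counting error only, not PCR copies or the spread between cultures. S100A8 was below S100A9 in each library. LYL1 knockdown libraries had 0.709, 1.2 and 0 under shRNAs 538, 540 and 542, and controls had 0, 0.332 and 0, with upper bounds of 1.48 to 1.87 in controls. S100A12, the third myeloid alarmin of the family, had 0 counts in these libraries too.

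S100A4, known as metastasin and a binder of non-muscle myosin IIA, was the member whose call depended least on the processing. It reached 261, 190 and 103 CPM in AE replicates 1, 2 and 3, against 72.9, 68.8 and 76.5 CPM in controls. Every AE knockdown library was above every control, as for 23.1% of tested genes. AE replicate 3, highest for S100A8 and S100A9, was the lowest of the 3 for S100A4. The mean was 185 ± 79.5 CPM in AE knockdown libraries and 72.7 ± 3.83 CPM in controls (SD, n = 3 each), a 2.54-fold difference (log2 fold change 1.34, SE 0.27, adjusted p = 0.0085, edgeR). S100A4 was called in all 20 alternative settings, with log2 fold changes of 1.00 to 1.62 and adjusted p from 7.01e-05 to 0.0454. Its neighbour S100A3 overlaps it on the same strand, and reads shared between them could have been lost in counting.

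S100A6, known as calcyclin and a partner of annexins and of CACYBP, was a low transcript that rose in AE knockdown libraries. It stood at 3.43, 1.97 and 6.87 CPM in AE replicates 1, 2 and 3, against 0.728, 0.715 and 0.587 CPM in controls. The groups did not overlap, with AE knockdown higher, as for 23.1% of tested genes. The log2 fold change was 2.55 (SE 0.60, adjusted p = 0.0156, edgeR), or 5.87-fold. Without AE replicate 3 it was 1.97 and still called (adjusted p = 0.0269, edgeR). The call was lost when any one control was left out, with adjusted p from 0.0602 to 0.0654 and log2 fold changes of 2.46 to 2.60.

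S100A13, known for the release of FGF1 and IL1A without a signal peptide, was at 3.29, 5.42 and 4.9 CPM in AE replicates 1, 2 and 3, against 1.78, 1.77 and 2.81 CPM in controls. The groups did not overlap, with AE knockdown higher, as for 23.1% of tested genes. The log2 fold change of 1.10 was just past the threshold (SE 0.35, adjusted p = 0.0458, edgeR), a 2.14-fold difference. It was called in 12 of 20 alternative settings, with adjusted p up to 0.157. Without AE replicate 3 the log2 fold change was 1.03 and not called (adjusted p = 0.0841, edgeR). S100A13 overlaps S100A1 on the opposite strand and AL162258.1 on the same strand. Strand use in the counting is not given in the sources used here, so reads of S100A13 and S100A1 may not be separable. Reads shared with AL162258.1 could have been lost in counting. S100A6 and S100A11 also overlap a gene on the opposite strand, BX470102.1 and AL450992.1. S100A1, the EF-hand protein best known from heart muscle, was itself at 1.46, 2.43 and 1.68 CPM in AE replicates 1, 2 and 3, against 0.688, 0.753 and 0.881 CPM in controls (log2 fold change 1.27, SE 0.33, adjusted p = 0.0219, edgeR). The S100A1 call was lost without AE replicate 2 (adjusted p = 0.0516), with a replicate block (adjusted p = 0.0548, edgeR) and without any one control (adjusted p from 0.0648 to 0.0874).

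S100A11, or calgizzarin, a partner of annexin A1 and the highest member, was not called. It was at 211, 231 and 332 CPM in AE replicates 1, 2 and 3, against 227, 228 and 224 CPM in controls, so the groups overlapped (log2 fold change 0.19, SE 0.24, adjusted p = 0.591, edgeR). S100P was at 10, 11.7 and 12.7 CPM in AE knockdown libraries, against 7.36, 8.06 and 7.59 CPM in controls. All AE knockdown values of S100P lay above the controls, which 23.1% of all tested genes also did, but the difference was not called (log2 fold change 0.58, SE 0.35, adjusted p = 0.245, edgeR). S100A10, the p11 subunit that joins annexin A2, had 2, 0 and 0 counts in AE replicates 1, 2 and 3, 4, 4 and 5 counts under LYL1 shRNAs 538, 540 and 542 and 1, 8 and 0 counts in controls. AE knockdown and control values of S100A10 overlapped.

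**Figure D2:**
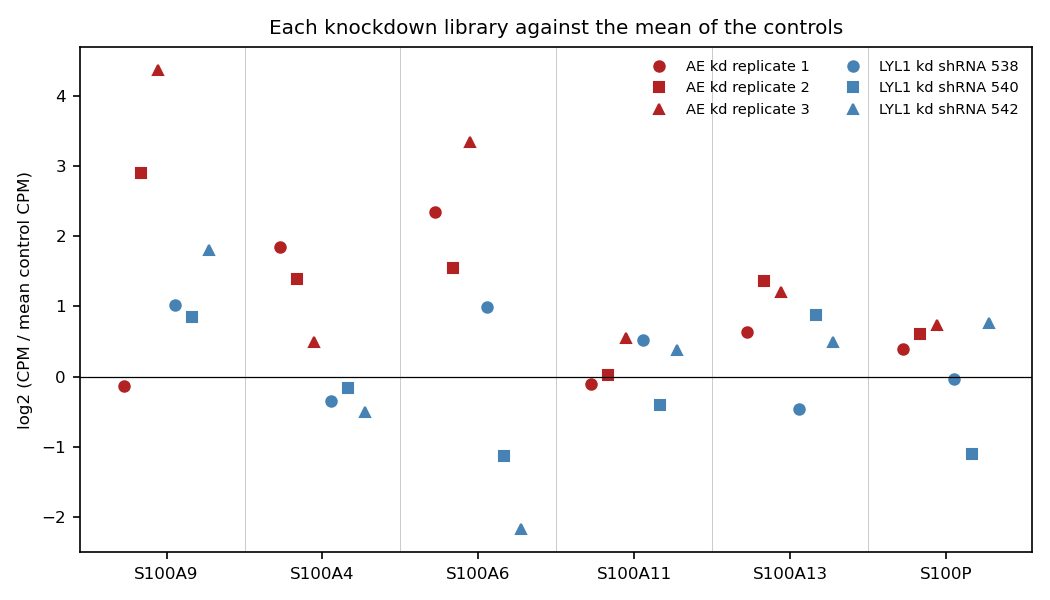
Each knockdown library against the mean of the 3 controls, as log2 of the CPM ratio, for 6 members; symbols are libraries, AE knockdown in red and LYL1 knockdown in blue, and S100A8 is left out because its controls held 1 count in all. The AE knockdown libraries are ordered differently by different members: replicate 3 is highest for S100A9 and S100A6 and lowest for S100A4.

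The AE knockdown libraries did not rank alike across members. Replicate 3 was highest for S100A6, S100A8, S100A9, S100A11 and S100P, replicate 1 was highest for S100A4, and replicate 2 was highest for S100A13. Replicate 1, with the most S100A4, was the replicate with S100A9 below the controls. Leaving out replicate 3 left 3 members called, S100A4, S100A6 and S100A8.

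**Figure D3:**
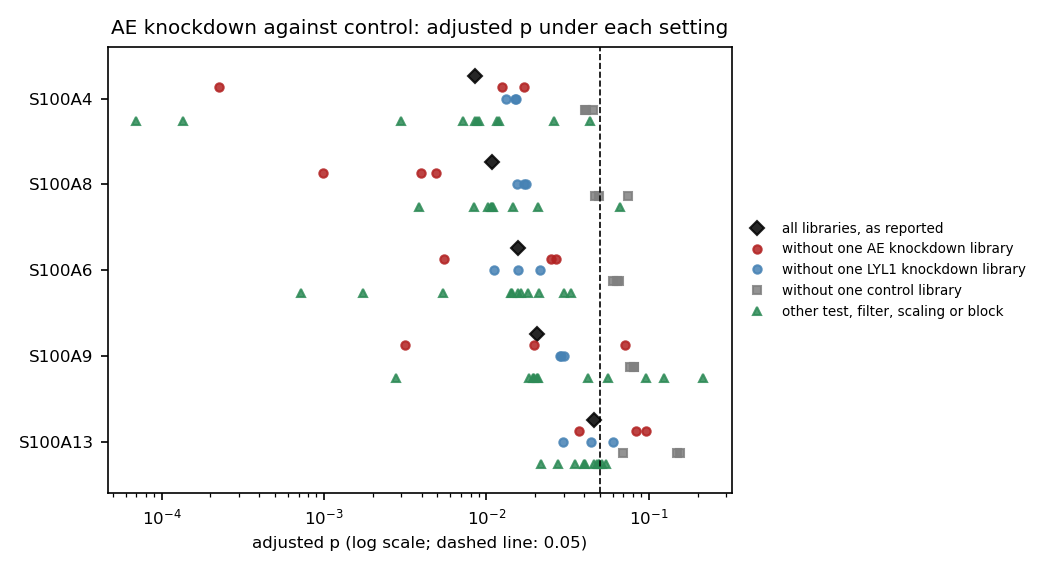
Adjusted p of the 5 members called in AE knockdown against control, for the reported fit and each alternative, on a log axis with a dashed line at 0.05. The S100A4 points all lie left of the line, while leaving out one control library (grey squares) puts S100A6, S100A9 and S100A13 right of it.

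For LYL1 knockdown against control, the question was whether the S100 genes respond to loss of LYL1. No member was called by edgeR's quasi-likelihood test, 0 had an unadjusted p under 0.05 with all 9 libraries, and DESeq2 and both limma-voom fits also called 0. The background was as sparse: 2 of 14741 genes were called, 0.0136% either way and 0.00678% in each direction, while 4.82% had an unadjusted p under 0.05. These counts do not show that the members were unaffected, since LYL1 itself was not called.

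S100A9 was separated from the controls in LYL1 knockdown libraries without passing the test. It was at 19.4, 17.3 and 33.3 CPM under shRNAs 538, 540 and 542, against 9.14, 10.2 and 9.36 CPM in controls. All 3 knockdown values lay above all 3 controls, as they did for 8.41% of tested genes, and the log2 fold change was 1.28 (SE 0.78, adjusted p = 1, edgeR). Under the alternatives it ranged from 0.95 to 1.46 and was never called. With only the 6 libraries compared, S100A9 had an SE of 0.24 and an unadjusted p of 0.000435 (adjusted p = 0.102, edgeR), and S100A4 an unadjusted p of 0.0138 (adjusted p = 0.347, edgeR). S100A8 had 4, 6 and 0 counts under shRNAs 538, 540 and 542, against 0, 1 and 0 in controls, a ratio of the summed libraries of 10.4 with a counting interval of 1.48 to 453.

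The other members of the LYL1 comparison scattered. S100A4 was at 57.3, 64.8 and 51.2 CPM under shRNAs 538, 540 and 542, against 72.9, 68.8 and 76.5 CPM in controls, without overlap, as for 8.17% of tested genes that lay below the controls, but not called (log2 fold change -0.33, SE 0.26, adjusted p = 1, edgeR). S100A6 was at 1.34, 0.309 and 0.15 CPM under the 3 shRNAs, which spans both sides of the controls at 0.728, 0.715 and 0.587 CPM. S100P likewise spanned them, at 7.52, 3.56 and 13 CPM. S100A11, at 324, 170 and 295 CPM, and S100A13, at 1.53, 3.91 and 2.99 CPM, overlapped the controls. The spread between LYL1 knockdown libraries was wide beside that of the controls: S100A11 averaged 263 ± 81.6 CPM in LYL1 knockdown libraries and 226 ± 2.25 CPM in controls (SD, n = 3 each). Each LYL1 knockdown library has its own shRNA, so differences between shRNAs and between cultures cannot be told apart. The control libraries may be technical repeats.

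AE knockdown set against LYL1 knockdown tests the difference between the 2 knockdowns itself. S100A4, S100A6 and S100A8 were called higher in AE knockdown libraries and no member was called lower, against 10.7% of all genes called higher and 9.7% lower. At an unadjusted p under 0.05, which 36.3% of tested genes reached, 0 members were lower, and DESeq2 and limma-voom called 0 lower. For S100A8 the filter had again fixed the direction. The 3 called members were higher in every AE knockdown library than in every LYL1 knockdown library, as were 18.2% of tested genes. This comparison shares its AE knockdown libraries with the one above, so its calls are not independent of it.

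S100A4 was 3.2-fold higher in AE than in LYL1 knockdown libraries (log2 fold change 1.68, SE 0.27, adjusted p = 0.00416, edgeR), with 261, 190 and 103 CPM against 57.3, 64.8 and 51.2 CPM. It was called in all 19 alternatives. S100A6 was 6.32-fold higher (2.66, SE 0.61, adjusted p = 0.0144, edgeR). Without shRNA 538, its highest LYL1 knockdown library, the log2 fold change of S100A6 was 4.04, without AE replicate 3 it was 2.07 (adjusted p = 0.0239), and the call was lost without shRNA 540 or 542 (adjusted p = 0.0508 each) or with only the 6 libraries compared (adjusted p = 0.0547). S100A8, with 36, 83 and 1769 counts in AE against 4, 6 and 0 in LYL1 knockdown libraries, had a fitted log2 fold change of 7.68 (SE 1.75, adjusted p = 0.0136, edgeR) that was 3.87 without AE replicate 3 (adjusted p = 0.00282) and was not called by limma-voom with sample weights (4.30, adjusted p = 0.108), by limma-voom with a spread per group (5.78, adjusted p = 0.162), without the low-count filter (7.64, adjusted p = 0.0815), with only the 6 libraries compared (7.67, adjusted p = 0.0516) or without shRNA 542 (7.20, adjusted p = 0.0576).

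S100A9 was not called between the knockdowns, at 8.68, 71.3 and 198 CPM in AE knockdown libraries against 19.4, 17.3 and 33.3 CPM in LYL1 knockdown libraries. AE replicate 1 lay below all LYL1 knockdown libraries. The log2 fold change was 1.99 (SE 0.77, adjusted p = 0.0908, edgeR), and without AE replicate 1 it was 2.52 and called (adjusted p = 0.007). Without AE replicate 3 it was 0.78 (adjusted p = 0.458), and limma-voom gave 0.14 with sample weights (adjusted p = 0.93) and 1.13 with a spread per group (adjusted p = 0.415). S100A11 (-0.03, SE 0.24, adjusted p = 0.945), S100A13 (0.69, SE 0.34, adjusted p = 0.169) and S100P (0.53, SE 0.35, adjusted p = 0.293) were not called by edgeR either. S100A10, with 2, 0 and 0 counts in AE against 4, 4 and 5 in LYL1 knockdown libraries, was lower without overlap. The share of such genes, 17.2%, was taken over tested genes, which do not include S100A10. S100A10 entered the fit only without the low-count filter, where it was not called (log2 fold change -2.60, SE 1.20, unadjusted p = 0.0394, adjusted p = 0.208, edgeR).

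**Figure D4:**
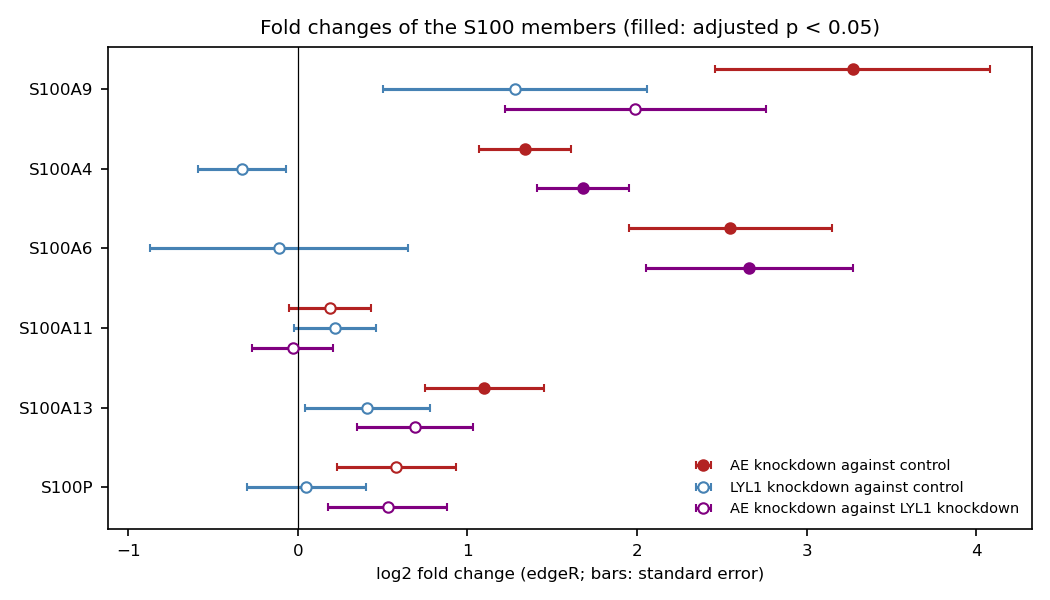
Log2 fold changes with standard errors for 6 members in the 3 comparisons; filled symbols have an adjusted p under 0.05, and S100A8 is left out because a fitted fold against near-empty controls is no measured size. S100A4 and S100A6 are filled in both comparisons that involve AE knockdown, S100A9 and S100A13 against control alone, and S100A11 and S100P in none.

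The genes whose pattern over the 9 libraries lay closest to each member were found by the root mean square distance of log2(CPM + 0.5) after each gene's own mean was removed. For S100A8 they included VSIR at 0.30 and CLEC12A at 0.68, beside an SD of 2.30 for S100A8 itself. VSIR, an immune checkpoint receptor of myeloid cells, had 1.61, 1.51 and 73.8 CPM in AE replicates 1, 2 and 3, against at most 0.113 CPM in controls. For S100A9, with an SD of 1.45, the closest genes C19orf38, AGAP7P and TMEM71 were no nearer than 0.67, 0.70 and 0.76. For S100A6 the closest were LILRA1 at 0.20, SFXN5 at 0.28 and LPXN at 0.29, beside an SD of 1.06. LILRA1, a leukocyte immunoglobulin-like receptor, had 8.15, 7.5 and 24.8 CPM in AE replicates 1, 2 and 3, against 2.71, 2.67 and 1.97 CPM in controls.

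S100A4 lay closest to GLRB at 0.32, CLYBL at 0.33 and TSPOAP1-AS1 at 0.33, beside an SD of 0.75. For S100A13 the nearest gene was its overlapping neighbour S100A1 at 0.21, followed by UCN at 0.21 and ZBTB18 at 0.22, beside an SD of 0.52. S100A11 was matched by ATP6V1G1 at 0.11, SNX14 at 0.12 and PHTF1 at 0.13 (own SD 0.30), and S100P by AC092687.3 at 0.20, SCARF2 at 0.20 and ST13P6 at 0.21 (own SD 0.51). Genes with a small spread, such as S100A11, find close neighbours easily, so distances are to be read beside the SD.

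Of 11 other S100 genes, 5 had no count in any library and 2 were tested. S100A1 was called higher in AE knockdown libraries as given above. S100Z, a member described in leukocytes, was at 9.9, 11 and 11.1 CPM in AE knockdown libraries, against 8.25, 7.57 and 7.47 CPM in controls, and was not called (log2 fold change 0.46, SE 0.33, adjusted p = 0.33, edgeR).

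Receptors for released S100 proteins were mostly silent or not called. Of 11 listed, 6 were tested. In AE knockdown against control 1 was called higher and 1 lower, beside 11.4% and 10.4% of all tested genes. The median log2 fold change of the 6 was -0.06, beside 0.05 over all tested genes. CD33, a sialic acid-binding receptor reported to bind S100A9, was at 117, 85.9 and 173 CPM in AE replicates 1, 2 and 3, against 33.6, 32.2 and 27.8 CPM in controls. The groups were far apart (log2 fold change 2.01, SE 0.22, adjusted p = 0.00103, edgeR), and CD33 also lay above controls under LYL1 shRNAs 538, 540 and 542 at 75.7, 76.9 and 82.3 CPM (log2 fold change 1.33, adjusted p = 0.142, edgeR). That difference of CD33 under LYL1 knockdown was called by edgeR without AE replicate 2 (adjusted p = 0.03), without AE replicate 3 (adjusted p = 0.00541) and with only the 6 libraries compared (adjusted p = 0.00228), without the low-count filter (adjusted p = 0.00522), and by DESeq2 and both limma-voom fits. MCAM, an adhesion molecule that binds S100A8 and S100A9, fell to 0.572, 0.563 and 0.577 CPM in AE knockdown libraries, against 4.85, 5.31 and 5.12 CPM in controls (log2 fold change -3.15, SE 0.37, adjusted p = 0.00134, edgeR). TLR4, its partner LY96, CD14, CD36 and AGER, which encodes RAGE, had at most 0.151 CPM in any library. NPTN, the next by adjusted p, was at 51.5, 67.4 and 119 CPM in AE knockdown libraries, against 93.1, 99.5 and 83.5 CPM in controls and was not called (adjusted p = 0.611, edgeR).

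**Figure D5:**
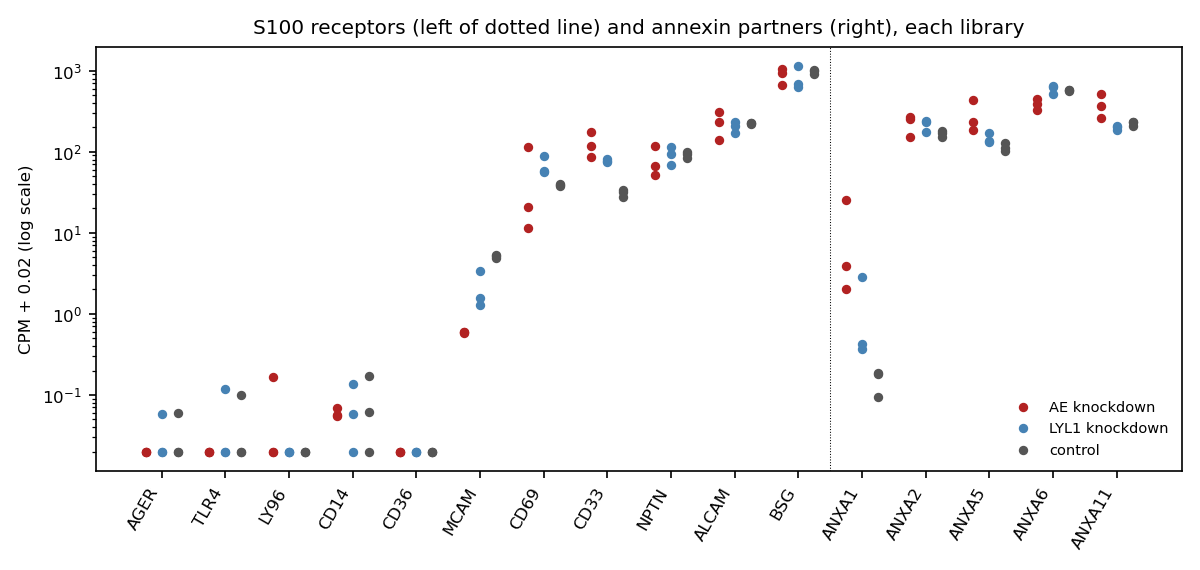
CPM plus 0.02 on a log axis of 11 receptors of released S100 proteins, left of the dotted line, and 5 annexins, right of it, in each of the 9 libraries. TLR4, LY96, CD14, CD36 and AGER sit at or near the bottom in all groups, CD33 and annexin A1 are higher in AE knockdown than in control libraries, and MCAM is lower.

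Below TLR4 and RAGE, 18 of 19 listed signalling genes were tested. In AE knockdown against control 1 was called higher and 2 lower (median log2 fold change 0.05), beside 11.4% and 10.4% of all tested genes. IRAK4, the kinase recruited by MYD88, was called higher (log2 fold change 0.99, SE 0.29, adjusted p = 0.0341, edgeR). IRAK4 was at 30.2, 27.2 and 67.6 CPM in AE replicates 1, 2 and 3, against 20, 21 and 21.9 CPM in controls. IRAK3, its inhibitory relative, was called lower at 131, 109 and 112 CPM in AE knockdown libraries, against 207, 202 and 204 CPM in controls (-0.80, SE 0.21, adjusted p = 0.0244, edgeR). DIAPH1, the formin bound by the tail of RAGE, was also lower (-0.56, SE 0.13, adjusted p = 0.0163, edgeR). When any one control was left out, 0 genes of this list were called by edgeR, while 4 or 5 had an unadjusted p under 0.05 and DESeq2 with all libraries called 2 higher and 2 lower.

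Among 19 intracellular partners of S100 proteins, 15 were tested. In AE knockdown against control 4 were called higher and 3 lower (median log2 fold change -0.24), beside 11.4% and 10.4% of all tested genes. ANXA1, annexin A1, a partner of S100A11, was at 3.86, 2.01 and 25.1 CPM in AE replicates 1, 2 and 3, against 0.162, 0.0753 and 0.168 CPM in controls (adjusted p = 0.0119, edgeR). No control library reached the filter's 0.394 CPM for ANXA1, against 3 AE and 2 LYL1 knockdown libraries, so its fitted fold is not given as a size. ANXA5 was at 236, 184 and 435 CPM, against 112, 103 and 130 CPM in controls (1.31, SE 0.27, adjusted p = 0.00989, edgeR). EZR, the membrane-to-actin linker ezrin, was at 146, 140 and 135 CPM, against 205, 212 and 208 CPM in controls (-0.58, SE 0.12, adjusted p = 0.0106, edgeR). Without control replicate 2, 0 partners were called by edgeR and 9 had an unadjusted p under 0.05. Without control replicate 1 or 3, 1 was higher and 1 lower.

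Of 9 transcription factors described at S100A8 and S100A9, 8 were tested, and in AE knockdown against control 4 were higher and 2 lower (median log2 fold change 0.47), beside 11.4% and 10.4% of all tested genes. SPI1, or PU.1, a regulator of myeloid identity, was at 262, 216 and 365 CPM in AE replicates 1, 2 and 3, against 136, 132 and 115 CPM in controls (log2 fold change 1.14, SE 0.20, adjusted p = 0.00542, edgeR). CEBPD was at 64.3, 46.5 and 56.2 CPM, against 26.9, 26.8 and 26.2 CPM in controls (1.06, SE 0.19, adjusted p = 0.00564, edgeR). NR3C1, the glucocorticoid receptor, was lower at 117, 101 and 115 CPM, against 182, 184 and 182 CPM in controls (-0.72, SE 0.13, adjusted p = 0.00564, edgeR). CEBPE, a factor of late granulocyte maturation named after its values were seen, was at 145, 196 and 461 CPM, against 67.8, 67 and 59.7 CPM in controls (2.04, SE 0.41, adjusted p = 0.00976, edgeR), with the AE knockdown libraries in the same order as for S100A9. CEBPB, which was not called, had that order too, at 11.5, 12.8 and 13 CPM (log2 fold change 0.12, adjusted p = 0.702, edgeR). SPI1, CEBPD, NR3C1, CEBPA, STAT3 and HIF1A had other orders. In LYL1 knockdown against control, edgeR called 0 genes in each of these lists, with 2 receptors, 2 transcription factors and 0 signalling genes, partners or other S100 genes at an unadjusted p under 0.05. DESeq2 and both limma-voom fits also called 0 in these lists except that of the receptors.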

How the data were processed

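Gene counts from 9 RNA-seq libraries were used, 3 per group. The deposited counts are whole numbers of reads per gene, made by the authors on hg19, per the submitters' processing notes, which name fastp 0.20.1, HISAT2 2.2.0, SAMtools 1.7 and featureCounts 2.0.1. Strand use and filters are not given in the sources used here. No row lacked a gene name, and in 6 files a suffix was removed from 5 names.

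Counts were scaled by trimmed means and tested with edgeR 4.0.16 (R 4.3.3) by the quasi-likelihood F test with robust spread, in a model of 3 group means over all 9 libraries, after filterByExpr by group. Benjamini-Hochberg adjustment ran over 14741 genes, with calls under 0.05. The test was also run on counts simulated with the fit's own spread, the same in every group. That run does not show how the test behaves where groups differ in spread. CPM use the scaled library sizes. Per-length levels divide CPM by the union of exons in GENCODE 29, a GRCh38 annotation, so lengths may differ from those counted. Ratios from few counts have 95% exact counting intervals, and a count of 0 allows 3 counts.

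Alternatives were other scalings, a stricter filter of 50 counts in 3 libraries and no filter, 6 libraries alone, a replicate block, DESeq2 1.42.0, limma 3.58.1 voom fits and leaving out each library. The legacy edgeR test was added after seeing the data. Members and lists were chosen with earlier results of these data known. Named were all members, the targets, up to 3 genes per list with the smallest adjusted p in the AE comparison, and the 3 nearest genes per tested member; some genes so named are not reported here. VSIR and LILRA1 were chosen for their values among the nearest genes. The silent receptors, the silent neutrophil genes and the other transcription factors compared by order were named after their values were seen.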

Additional observations from a re-analysis of the deposited data

How the results depend on the processing

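Members called in AE knockdown against control were 5. They were 3 without the low-count filter (S100A4, S100A6 and S100A13), and 1 to 5 when each library was left out in turn. The fewest came without control replicate 2, which left S100A4, while leaving out control replicate 1 or 3 left S100A4 and S100A8. Over all genes the count of 3214 was 1096, 954 and 1050 without control replicates 1, 2 and 3, so the fall was not limited to the members. Between the knockdowns, the 3 calls were 1 (S100A4) with only the 6 libraries compared, where 941 of all genes were called against 3003, and 1 to 4 with each library left out. Over all genes, the same comparison gave 1830 without shRNA 538, 1460 without shRNA 542 and 1685 with limma-voom and a spread per group. For LYL1 knockdown against control, the 2 genes called became 1 to 56 under the alternatives, among them 34 in DESeq2, and 0 members in each. The cause of these changes was not tested.

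Of 399 recomputed log2 fold changes of members, 388 kept their direction, and the 11 that reversed were not called in any setting. S100A11 in AE knockdown against control was -0.05 to 0.31 as AE libraries were left out, lowest without replicate 3. S100A6 in LYL1 knockdown against control was -1.49 without shRNA 538 and 0.23 and 0.29 without shRNAs 540 and 542. S100P in that comparison was -0.47 without shRNA 542, 0.41 without shRNA 540, -0.33 with limma-voom sample weights and -0.17 with a spread per group. S100A11 in AE against LYL1 knockdown was 0.01 with upper-quartile scaling, 0.09 and 0.04 without AE replicates 1 and 2, and 0.15, -0.27 and 0.05 without shRNAs 538, 540 and 542.

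AE knockdown and control libraries share replicate numbers. The deviations of same-numbered libraries had correlations of 0.0416, -0.0135 and 0.00685 for numbers 1, 2 and 3, over 14741 genes. For libraries of different numbers the correlations were -0.047 to 0.0317. With 3 libraries per group and controls that may be technical repeats, these values cannot decide if same-numbered libraries were prepared together. With a replicate block, 3 members (S100A4, S100A6 and S100A8) and 1629 genes in all were called. For LYL1 knockdown no paired analysis was possible because its shRNA numbers occur in no other group. DESeq2 gave no adjusted p for S100A8, and the strict filter removed it. At this depth S100A12 gave no test and S100A10 one only without the filter.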

Other observations

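Other EF-hand calcium-binding genes and the phagocyte NADPH oxidase, whose activation in neutrophils involves S100A8 and S100A9, were also counted in AE knockdown against control. Of 36 listed EF-hand genes 33 were tested, and edgeR called 8 higher and 3 lower (median log2 fold change 0.18), beside 11.4% and 10.4% of all tested genes. GCA, or grancalcin, a calcium-binding protein of neutrophil granules, was at 10.7, 6.09 and 34.6 CPM in AE replicates 1, 2 and 3, against 1.62, 1.81 and 1.26 CPM in controls (log2 fold change 3.43, SE 0.61, adjusted p = 0.00659, edgeR). TESC, or tescalcin, was at 74.1, 83.9 and 92.8 CPM, against 36.9, 43.6 and 35.2 CPM in controls (1.11, SE 0.15, adjusted p = 0.0021, edgeR). NCALD, or neurocalcin delta, had at most 0.0481 CPM in AE knockdown libraries, against 0.243 to 0.503 CPM in controls (adjusted p = 0.00518, edgeR), and no AE knockdown library reached the filter's level. Without a control library, 3 EF-hand genes were higher and 1 lower, whichever control was left out.

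Of 6 NADPH oxidase genes 5 were tested, and 3 were called higher and 0 lower (median log2 fold change 0.82). Over all tested genes 11.4% were called higher and 10.4% lower. CYBA, the p22 membrane subunit, was at 367, 370 and 582 CPM in AE replicates 1, 2 and 3, against 201, 210 and 188 CPM in controls (log2 fold change 1.14, SE 0.18, adjusted p = 0.00399, edgeR), and RAC2 at 392, 276 and 480 CPM, against 234, 228 and 188 CPM in controls (0.82, SE 0.19, adjusted p = 0.0141, edgeR). CYBB, the catalytic subunit, had at most 0.481 CPM in any library and was not tested.

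Of the other marker lists, the neutrophil genes summed to 674 to 778 CPM in AE knockdown, 375 to 727 CPM in LYL1 knockdown and 682 to 813 CPM in control libraries, nearly all of it CSF3R. In AE knockdown against control CSF3R was not called (log2 fold change -0.08, SE 0.21, adjusted p = 0.802, edgeR). CXCR2 was at 13.9, 7.92 and 18.7 CPM in AE knockdown libraries, against 5.91, 6.51 and 7.34 CPM in controls (log2 fold change 1.03, SE 0.34, adjusted p = 0.0488, edgeR). CAMP was at 0.107, 0.106 and 0.961 CPM, against 0.0404, 0.0377 and 0 CPM in controls, too low to test. FCGR3B and MMP9 had no count in any library. MMP8, LTF and LCN2 had none in the AE knockdown libraries. Lymphocyte genes summed to 5.77 to 38.7 CPM, 5.1 to 8.48 CPM and 9.36 to 11.9 CPM in the same groups. They did not move together in AE knockdown against control. NKG7 was called higher (5.04, 1.58 and 20.8 CPM against 0.243, 0.414 and 0.126 CPM, adjusted p = 0.00939, edgeR). CD3D was called lower (0.25, 0.493 and 0.625 CPM against 3.92, 5.38 and 3.4 CPM, adjusted p = 0.00405, edgeR). CD79A reached 16.7 CPM in AE replicate 3 and was not called (adjusted p = 0.636, edgeR). Megakaryocyte genes stayed at 1.82 to 4.18 CPM and epithelial genes at 0.449 to 1.3 CPM over all libraries.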
